A study of Mus musculus with 16 samples.

Results

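Peritoneal macrophages of B10.Q mice were compared with those of mice without Ifnar1, whatever the animals had received. The comparison used 10 of the 16 arrays of the series: all 6 from B10.Q macrophages and all 4 from knockout (KO) macrophages. Of 10531 genes tested, 567 both differed between the lines on average over treatments and had all 6 B10.Q values on one side of all 4 KO values. B10.Q was higher at 357 of them and lower at 210.

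Type I interferons signal through a receptor of 2 chains, IFNAR1 and IFNAR2, and through the kinases Jak1 and Tyk2 bound to them, and so switch on the interferon-stimulated genes. Peritoneal macrophages are mostly large, long-lived resident cells that depend on the transcription factor Gata6 and carry ICAM2 and F4/80, beside a smaller, monocyte-derived population rich in MHC class II. MHC class II molecules present peptides to CD4+ T cells, and their genes share promoter elements read by a complex that needs the coactivator Ciita.

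The KO mice were male B6.129S2-Ifnar1tm1Agt/Mmjax animals of 6 weeks, and the B10.Q/J mice were males of 7 weeks, a strain known for a natural mutation in Tyk2. Treatment was 10000 units of interferon alpha (IFNα) given under the skin. The 5 groups each held 2 arrays: KO titled without IFNα, KO at 2 h after IFNα, B10.Q with vehicle (1 array taken at 2 h and 1 at 5 h), and B10.Q at 2 h and at 5 h after IFNα. Cells positive for ICAM2 and F4/80 were sorted into TriZol, and their RNA was amplified with the Ambion WT Expression Kit and hybridised to Affymetrix Mouse Gene 1.0 ST arrays. For the KO pair titled without IFNα, the preparation text names the same 2 h injection as for its partner; the title was followed here. The titles of 5 of the 6 B10.Q arrays carry a spleen code, although their source is the peritoneal cavity. The labels do not say whether both arrays of a group are from different mice, and p-values therefore cover only the spread between these samples, which may be technical. The series has no wild-type array, so line, strain background, age, Ifnar1 and Tyk2 cannot be told apart in any difference below. The KO and the B10.Q arrays are numbered in separate runs in the series. The labels name no batch, and a batch that follows these runs could not be told apart from line.

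All values are log2 of the deposited intensity, differences are B10.Q minus KO, and ± gives the standard error from limma. The mean difference is the mean of the 3 B10.Q group means minus the mean of the 2 KO group means. Calls required limma's p, adjusted by Benjamini-Hochberg over all genes tested, to be under 0.05. KO values are printed in the order without IFNα 1 and 2, then IFNα 1 and 2. Array medians lay between 7.49 and 7.60, and many of the lower levels printed below lie under them. The files give no detection call, so for genes with a line mostly under the array median the log2 difference of the deposited values is given, and no fold.

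The 10 arrays carried the labelled cell type, with all 11 macrophage markers (among them Adgre1, Icam2 and Gata6) above the array median in every array. No T cell or NK cell marker was above the median in any array. The B cell marker genes had a mean level of 6.67 to 7.39 in KO arrays and 6.58 to 6.68 in B10.Q arrays, and both KO arrays numbered 1 were the high ones, with Ms4a1 at 7.54 and 7.89 against 5.88 and 5.80. Neutrophil markers ran from 6.63 to 7.24 in KO and from 6.49 to 6.62 in B10.Q arrays. The first KO array at 2 h after IFNα stood apart from the other KO arrays, with correlations over genes of 0.9497 to 0.9683 against 0.9791 to 0.9869 among the others. On the first principal component (46% of the variance) KO arrays lay between -29.6 and -7.77 and B10.Q arrays between 2.06 and 19.8. Ifnar1 itself was at 10.26, 10.09, 9.93 and 10.31 in KO and 10.09 to 10.46 in B10.Q arrays, so its probe set does not check the knockout.

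To show the upstream sequence of genes that differed together, 4 promoters are printed, from RefSeq on GRCm38.p6, as 250 bases that end at the base before the transcription start. Of 9 class II and interferon-stimulated genes looked up, 6 had an entry. Capitals in the 3 class II promoters mark GATTGG, the core of the class II Y box, found on either strand (the other strand reads CCAATC). In H2-Eb1 both strands match. This core lies in 14.6% of 32851 promoter windows of the same length. Capitals in Slfn5 mark GAAA, 2 bases of any kind and GAAA again, a form of the interferon response element, searched on both strands and present in 2.98% of the windows. A match is only a match of letters.
H2-Aa, chr17:34287824-34288073, minus strand: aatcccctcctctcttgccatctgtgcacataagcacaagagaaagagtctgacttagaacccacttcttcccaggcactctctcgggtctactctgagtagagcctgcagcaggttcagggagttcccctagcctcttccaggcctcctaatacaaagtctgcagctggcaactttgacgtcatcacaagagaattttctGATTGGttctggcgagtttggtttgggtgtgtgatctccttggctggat
H2-Eb1, chr17:34305617-34305866, plus strand: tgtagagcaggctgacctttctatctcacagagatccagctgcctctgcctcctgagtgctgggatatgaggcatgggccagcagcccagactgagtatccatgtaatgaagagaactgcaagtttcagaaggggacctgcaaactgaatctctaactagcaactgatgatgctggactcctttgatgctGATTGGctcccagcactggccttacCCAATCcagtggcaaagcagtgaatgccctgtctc
H2-Ob, chr17:34238655-34238904, plus strand: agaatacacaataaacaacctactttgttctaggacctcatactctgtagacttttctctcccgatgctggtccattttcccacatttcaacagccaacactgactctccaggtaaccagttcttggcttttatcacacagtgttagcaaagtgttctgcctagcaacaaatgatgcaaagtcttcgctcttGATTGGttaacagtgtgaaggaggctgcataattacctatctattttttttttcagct
Slfn5, chr11:82951852-82952101, plus strand: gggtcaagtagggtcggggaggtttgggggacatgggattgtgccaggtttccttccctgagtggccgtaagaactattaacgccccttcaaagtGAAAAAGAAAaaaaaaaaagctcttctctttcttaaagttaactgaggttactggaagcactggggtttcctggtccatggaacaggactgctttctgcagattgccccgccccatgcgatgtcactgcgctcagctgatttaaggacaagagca
The core starts 49 bases before the transcription start in H2-Aa, 60 and 35 in H2-Eb1 and 58 in H2-Ob, so in these 3 genes it lies within 60 bases of the start. The Slfn5 match starts 155 bases before its start. Of the other 2 genes with an entry, H2-DMa has 2 windows, 1 with the Y box core and 1 without, and the window of Eif2ak2 holds 0 matches to either motif.

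Of the genes tested, 550 (5.22%) were called higher in B10.Q and 275 (2.61%) lower. The lines did not overlap at 640 genes (6.08%) with B10.Q higher and at 473 (4.49%) with B10.Q lower. Both conditions held for 567 (5.38%), of which 357 (3.39%) were higher and 210 (1.99%) lower, and their median absolute difference was 0.46. Among them 36 were at least 2-fold higher and 21 at least 2-fold lower in B10.Q. A further 258 called genes overlapped and 546 genes without overlap were not called. At the edge of the no-overlap rule, Mcur1 (KO 9.30 to 9.68, B10.Q 9.68 to 9.91) and Col3a1 (KO 7.86 to 8.06, B10.Q 7.63 to 7.86) lay just inside. Agps (KO 9.0 to 9.47, B10.Q 9.47 to 9.73) and Ostc (KO 11.42 to 11.64, B10.Q 11.17 to 11.42) lay just outside.

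How many genes passed both conditions turned on single arrays. The 825 calls themselves became 282 without the second KO array titled without IFNα and 4204 without the second KO array at 2 h after IFNα, with 336 to 974 when any other array was left out. Called without overlap were 194 genes when the first of these arrays was left out and 1820 when the second was. Without any 1 B10.Q array the count was between 236 and 338, and without the first KO array it was 381 (titled without IFNα) or 687 (IFNα). A set of 169 genes, 114 higher and 55 lower, passed in the full comparison and in all 10 comparisons that each left out 1 array, and is called the stable set below. The split by direction also moved with the scaling: 63% of the 567 genes were higher in B10.Q, against 51.9% after quantile normalization and 81.5% after array medians were subtracted. For all 825 calls these shares were 66.7%, 56% and 81.5%, and for all 1113 genes without overlap 57.5%, 46.6% and 75.2%.

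Of the genes furthest above KO in B10.Q, several were far apart in every array, with and without IFNα. Tdo2, which opens the breakdown of tryptophan, had KO values of 5.32, 5.26, 5.50 and 5.34 and B10.Q values of 7.59 to 9.08 (median 8.0). All 4 KO arrays lay below their own lower quartiles and close together, and the difference was 2.84 ± 0.11 (adjusted p = 8.46e-07, limma). The 5 h arrays held its highest values, 9.08 and 8.78. Coro2b, a coronin that binds actin, read 6.67, 6.86, 7.0 and 6.81 in KO arrays and 9.38 to 9.96 (median 9.63) in B10.Q arrays. All 4 KO arrays lay under their own medians, and the difference was 2.79 ± 0.09 (adjusted p = 3.06e-07, limma). Hpgd, the dehydrogenase that inactivates prostaglandins, stood at 7.54, 7.55, 7.44 and 7.75 in KO and 9.69 to 10.46 (median 10.05) in B10.Q arrays. It was higher in B10.Q by 2.47 ± 0.11 (adjusted p = 2.43e-06, limma). Car12, a membrane carbonic anhydrase, read 7.05, 6.98, 7.47 and 6.90 in KO and 8.52 to 9.44 (median 9.24) in B10.Q arrays, a difference of 2.06 ± 0.17 (adjusted p = 0.000108, limma). Vcan, the matrix proteoglycan versican, differed by 1.76 ± 0.14 and the non-coding gene 1700006J14Rik by 1.81 ± 0.24, and neither overlapped between lines.

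**Figure D1:**
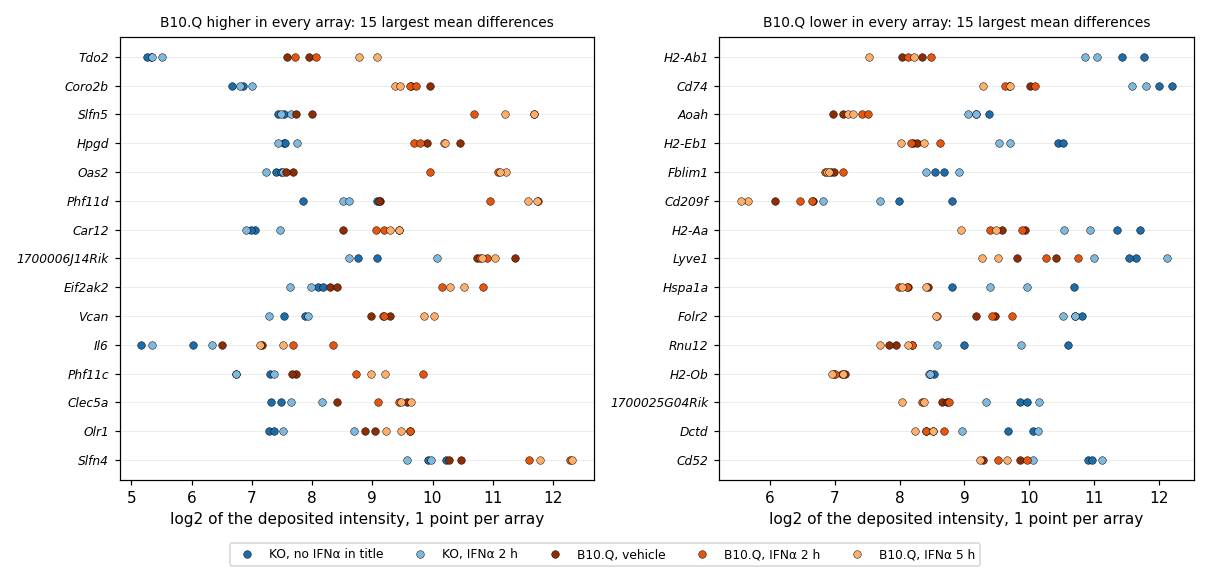
Log2 of the deposited intensity (horizontal axis) for the 15 genes with the largest mean difference in each direction among those called without overlap, 1 point per array, coloured by group. Tdo2 and Coro2b are separated by wide gaps in all groups, whereas Slfn5, Oas2 and Eif2ak2 show the B10.Q vehicle arrays close to the KO arrays and the IFNα arrays far above them.

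A pair of comparisons that share no array asked whether these differences were there with and without IFNα; only their estimate of spread is common. Without IFNα, 29 genes (0.275%) were called higher and 28 (0.266%) lower in B10.Q, and at 2 h after IFNα 163 (1.55%) were higher and 46 (0.437%) lower. All 567 genes had the same sign in both, which the no-overlap rule itself fixes. Of the 57 genes called without IFNα, 54 had the same sign at 2 h after IFNα and 34 were called there in the same direction. Of the 209 called at 2 h after IFNα, 139 had the same sign without it. The count of 57 became 391 without either KO array at 2 h after IFNα and lay between 21 (without the second B10.Q vehicle array) and 34 without any other array. The count of 209 became 76 without the first B10.Q array at 2 h and 2898 without the second KO array at 2 h, and lay between 149 and 281 without any other. The 34 genes called in both, 20 higher and 14 lower in B10.Q, were all among the 567 and all in the stable set. They were Tdo2, Coro2b, Hpgd, Car12, Vcan, Olr1, P2rx1, Trem2, Ada, Pi16, AI413582, Fuca1, Cnr2, Slc22a4, Sfrp1, Nnt, Zc3h6, Gbe1, Hyi and Ica1 on the higher side. On the lower side they were H2-Ab1, Cd74, Aoah, H2-Eb1, Fblim1, Folr2, H2-Ob, Cnn3, Ofcc1, Lgals1, Pdlim4, Supt3, Gm2a and Jun. Coro2b differed by 3.03 ± 0.14 without IFNα and by 2.76 ± 0.14 at 2 h, and Tdo2 by 2.48 ± 0.17 and 2.47 ± 0.17.

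**Figure D2:**
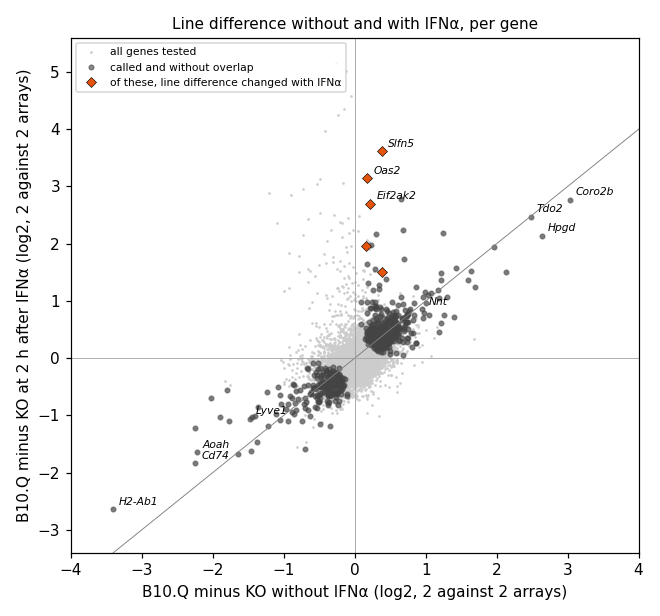
Line difference (B10.Q minus KO, log2) per gene without IFNα (horizontal axis) against the same at 2 h after IFNα (vertical axis), each from 2 arrays against 2, with a line of equality. Dark points are the 567 genes called without overlap, and diamonds are the 5 of them at which the line difference itself changed with IFNα; H2-Ab1, Tdo2 and Coro2b lie near the line of equality and Slfn5 and Oas2 far above it.

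The MHC class II genes were lower in B10.Q and had the lowest median of the gene lists examined. Of 9 class II presentation genes tested, 6 were called lower without overlap and 0 higher, with a median of -1.43 against 0.015 for all genes tested. This list had been examined in these arrays before, so its count is no independent evidence. H2-Ab1, the beta chain of the I-A molecule, was at 11.43, 11.77, 10.86 and 11.04 in KO and 7.53 to 8.48 (median 8.18) in B10.Q arrays. The gap between the lowest KO and the highest B10.Q array was wide, and KO exceeded B10.Q 8.88-fold (-3.15 ± 0.15, adjusted p = 2.51e-06, limma). H2-Aa, the I-A alpha chain, read 11.35, 11.71, 10.53 and 10.93 in KO and 8.94 to 9.94 (median 9.53) in B10.Q arrays (-1.60 ± 0.16, adjusted p = 0.000291, limma). H2-Eb1, the beta chain of I-E, read 10.45, 10.52, 9.53 and 9.70 against 8.02 to 8.62 (median 8.24; -1.77 ± 0.11, adjusted p = 1.37e-05, limma). In each of these 3 genes the KO arrays titled without IFNα were the higher KO pair, and even the lower pair stayed above every B10.Q array.

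Genes that handle class II molecules inside the cell went the same way. Cd74, the invariant chain that escorts class II molecules, was at 12, 12.20, 11.80 and 11.59 in KO and 9.28 to 10.09 (median 9.70) in B10.Q arrays (-2.16 ± 0.13, adjusted p = 1.17e-05, limma). H2-Ob, a chain of the DO molecule that restrains peptide loading, was almost constant within each line, at 8.53, 8.47, 8.46 and 8.47 in KO and 6.95 to 7.15 (median 7.06) in B10.Q arrays. Its difference was -1.43 ± 0.069 (adjusted p = 2.79e-06, limma), and all 6 B10.Q arrays lay below their own medians. H2-DMa, a chain of the loading factor DM, read 10.65, 11.38, 10.76 and 10.74 against 9.88 to 10.03 (median 9.94; -0.94 ± 0.12, adjusted p = 0.00194, limma). The other 3 genes tested overlapped between lines. Ciita, the class II coactivator, was at 7.62, 8.63, 7.38 and 7.13 in KO and 7.07 to 7.27 in B10.Q arrays, a difference of -0.55 ± 0.17 that was not called (adjusted p = 0.0702, limma). Ctss, the protease that trims the invariant chain, differed by 0.27 ± 0.11 and Ifi30, a lysosomal thiol reductase, by -0.033 ± 0.068, and neither was called.

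**Figure D3:**
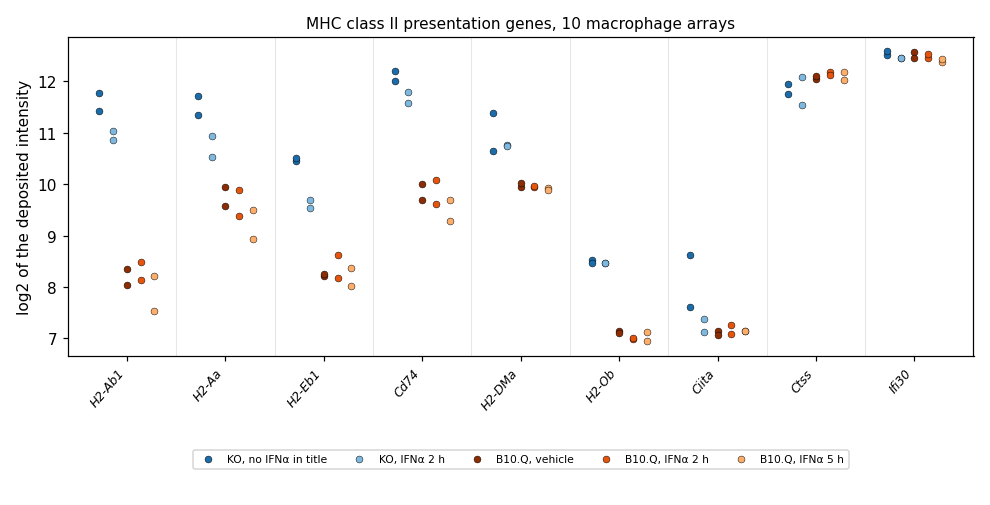
Log2 of the deposited intensity (vertical axis) of the 9 MHC class II presentation genes tested, 1 point per array, coloured by group. From H2-Ab1 to H2-Ob all KO points lie above all B10.Q points, while Ciita, Ctss and Ifi30 overlap.

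B cells also carry class II, and the KO arrays numbered 1 had the most B cell marker signal. Their 9 B cell markers averaged 7.16 and 7.39, against 6.75 and 6.67 in the KO arrays numbered 2 and at most 6.68 in B10.Q. In the KO arrays numbered 2, Ms4a1, Cd79a, Cd79b and Cr2 did not exceed the highest B10.Q array, whereas Pax5 (7.28 and 7.07 against a B10.Q range of 6.81 to 7.03), Ighm and Ebf1 stayed above every B10.Q array in both. Without both KO arrays numbered 1, a comparison added after the values were seen, H2-Ab1 differed by -3.28, Cd74 by -2.16, H2-Aa by -1.78, H2-Eb1 by -1.83, H2-DMa by -1.11 and H2-Ob by -1.42, and all 6 were called by limma (adjusted p from 2.83e-06 for H2-Ab1 to 0.00013 for H2-Aa). The part of B cell RNA in the class II differences was not tested. Dendritic cell markers had mean levels of 7.34 to 7.59 in KO and 7.35 to 7.65 in B10.Q arrays. In these sorted pools, fewer cells that carry a transcript and less of it per cell cannot be told apart.

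By contrast with class II, the class I presentation genes that were tested showed little line difference on average over treatments. Only 22 of the 37 genes listed were tested, and H2-K1, H2-D1 and H2-L were not among them. Of 22 tested, 1 was called higher and 1 lower, with a median of -0.02, and 4.55% were without overlap against 5.38% of all genes tested. H2-M3, a class I molecule that presents bacterial formylated peptides, was the 1 without overlap, at 8.95, 9.09, 8.97 and 9.03 in KO and 8.55 to 8.84 (median 8.72) in B10.Q arrays (-0.31 ± 0.073, adjusted p = 0.0348, limma). Its call held in only 3 of the 10 comparisons that left out an array, namely without either KO array at 2 h after IFNα and without the first B10.Q array at 2 h, and its value stayed between -0.34 and -0.27. H2-T24, the 1 called higher, had overlapping arrays, with B10.Q vehicle values of 9.11 and 9.11 inside the KO range of 8.74 to 9.24. It differed by 0.04 ± 0.21 without IFNα and by 2.23 ± 0.21 at 2 h (adjusted p = 0.000423, limma). Tap1 differed by -0.93 ± 0.33 and 1.22 ± 0.33 and was called in neither. The median of the list was -0.23 without IFNα and 0.099 at 2 h after it.

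Genes of the whole H2 complex on chromosome 17, in RefSeq order on GRCm38.p6, were called without overlap at 18 of 88, or 20.5%, against 5.38% of all genes tested. Of these, 15 were lower and 3 higher in B10.Q. Outside the class II genes, Hspa1a, which encodes an inducible Hsp70 chaperone, was the furthest apart, and D17H6S56E-5 differed by -0.93 ± 0.087 (adjusted p = 0.000207, limma). Flot1, a membrane scaffold protein, was higher in B10.Q by 0.61 ± 0.096 and Mdc1, a DNA damage checkpoint mediator, lower (-0.54 ± 0.09). Cfb, complement factor B, was higher at 10.16 to 10.91 (median 10.44) against 9.59, 9.47, 9.35 and 10.13 (0.88 ± 0.16, adjusted p = 0.0107, limma), but without the second KO array titled without IFNα its difference of 0.85 was not called (adjusted p = 0.071, limma). B10.Q mice carry another haplotype of this complex than C57BL/6 mice, and whether probes bind its alleles equally was not tested.

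Interferon-stimulated genes such as Slfn5, Oas2, Phf11d and Eif2ak2 were among the 15 genes furthest above KO in B10.Q, yet most members of the interferon lists overlapped between the lines. Of 36 antiviral effector genes, 27 were called higher and 0 lower, and 5 (13.9%, against 5.38% of all genes tested) were called without overlap. Their median difference was 0.93 over all treatments, -0.07 without IFNα and 1.56 at 2 h after IFNα. Of 23 genes of the PARP, TRIM and Schlafen families 19 were called higher and 4 (17.4%) were without overlap, with medians of 0.90, -0.07 and 1.22 in the same order. In these lists 0 genes were called without IFNα, against 24 and 19 at 2 h after it. Their mean calls draw on the IFNα arrays, so the share of all genes tested is no like background for them. Oas1a, Oas2 and Eif2ak2 passed both conditions, yet without IFNα they differed by 0.16 ± 0.16, 0.18 ± 0.28 and 0.22 ± 0.21 and were not called. Of 20 nucleic acid sensors, 13 were called higher and 1 lower, and 1 (5%) was without overlap, Ifih1, which encodes the RNA sensor MDA5. GBP and IRG GTPases had 2 of 9 called higher and 0 without overlap, with medians of -0.73 without IFNα and 1.79 at 2 h. The median without IFNα draws in part on the second KO array titled without IFNα. There Gm12250, Irgm1 and Gbp5 read 9.36, 9.88 and 9.23, against 7.84, 8.37 and 8.03 in the first such array. The vehicle arrays read 7.37 and 7.42, 8.39 and 8.39, and 7.69 and 7.71. Irf1 (9.50 and 10.61) and Tap1 (9.02 and 10.18) split this KO pair too, but Gm4951 (8.54 and 8.63) and Mx1 hardly did. For Mx1, an antiviral GTPase gene with deletion variants among laboratory strains, the B10.Q vehicle arrays read 6.15 and 6.12. These values were near or below the KO arrays at 6.36, 6.43, 6.25 and 6.14. The B10.Q arrays at 2 h read 11.87 and 10.84. The mean difference of Mx1 was 3.08 ± 0.17 (adjusted p = 8.08e-06, limma) in spite of the overlap. In a comparison by line alone, which leaves treatment in the spread, Mx1 (3.08, adjusted p = 0.0793, limma) and Oas2 (2.36, adjusted p = 0.0564, limma) were not called, nor were other genes of these lists such as Ifit1, Usp18 and Irf7.

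Slfn5, a Schlafen family member, showed the pattern most clearly among genes without overlap. Its KO arrays read 7.43, 7.54, 7.49 and 7.65, its B10.Q vehicle arrays 7.74 and 8.0, those at 2 h 11.69 and 10.68 and those at 5 h 11.20 and 11.68. The vehicle arrays were only just above the KO arrays and the IFNα arrays far above both. Its line difference was 0.38 ± 0.28 without IFNα and 3.61 ± 0.28 at 2 h, and these differed by 3.23 ± 0.40 (adjusted p = 0.00895, limma interaction). Oas2, which makes the 2-5A messenger that activates RNase L, had KO values of 7.40, 7.48, 7.52 and 7.24 and B10.Q values of 7.68 and 7.56 with vehicle, 11.08 and 9.95 at 2 h and 11.22 and 11.12 at 5 h. The line difference of Oas2 grew by 2.96 ± 0.40 with IFNα (adjusted p = 0.011, limma interaction). Eif2ak2, the kinase PKR that shuts down translation on double-stranded RNA, had 8.09, 8.18, 7.63 and 7.98 in KO arrays and 8.29 and 8.41, 10.83 and 10.16 and 10.29 and 10.53 in the B10.Q pairs. Its interaction was 2.48 ± 0.29 (adjusted p = 0.00874, limma).

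In all genes tested, the line difference was larger at 2 h after IFNα than without it at 43 (0.408%) and smaller at 0, and 646 had an unadjusted p under 0.05. Only 5 of the 43 were among the 567: Slfn5, Oas2, Eif2ak2, Oas1a (1.81 ± 0.22, adjusted p = 0.00895, limma) and Arg1. Arg1, arginase 1, which breaks down arginine and marks alternative activation, is not a classical interferon-stimulated gene. It read 9.73, 9.79, 9.48 and 9.39 in KO arrays, 10.02 and 10.26 with vehicle, 10.85 and 11.02 at 2 h and 10.37 and 10.57 at 5 h in B10.Q. Its line difference was 0.38 ± 0.13 without IFNα, 1.5 ± 0.13 at 2 h, and the change between them 1.12 ± 0.18 (adjusted p = 0.03, limma). The count of 43 fell to 8 without the second KO array titled without IFNα, to 9 and 11 without the first and the second B10.Q vehicle array, and rose to 490, 95 and 90 without the second and first KO arrays at 2 h and the second B10.Q array at 2 h.

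**Figure D4:**
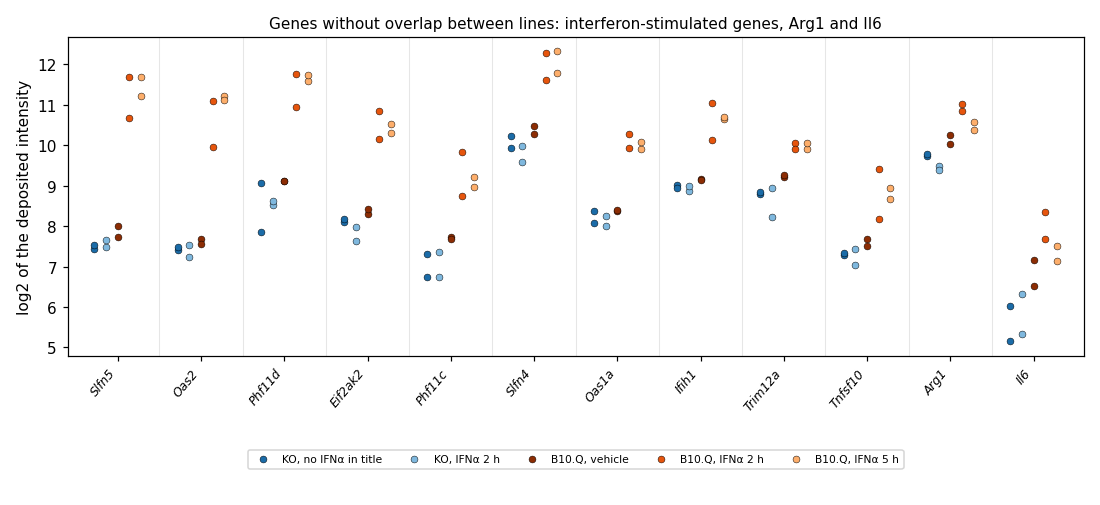
Log2 of the deposited intensity (vertical axis) of 12 genes without overlap between the lines, 1 point per array, coloured by group: 10 interferon-stimulated genes, Arg1 and Il6. For Slfn5, Oas2 and Eif2ak2 the B10.Q vehicle arrays lie near the KO arrays and the 2 h and 5 h arrays well above; for Il6 the KO arrays are all below the vehicle arrays.

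Other genes of the same kind had no called interaction. Phf11d was at 7.85, 9.07, 8.52 and 8.61 in KO arrays, 9.12 and 9.11 with vehicle, 11.75 and 10.95 at 2 h and 11.58 and 11.74 at 5 h (2.20 ± 0.22 on average, interaction adjusted p = 0.153, limma). Its vehicle arrays exceeded the highest KO array by less than the KO arrays differed among themselves. On average over treatments Slfn4 was higher by 1.53 ± 0.16, Phf11c by 1.66 ± 0.22, Ifih1 by 1.18 ± 0.15 and Trim12a, a relative of the antiviral Trim5, by 1.04 ± 0.13. Without IFNα, Slfn4, Ifih1 and Trim12a differed by 0.30 ± 0.25, 0.17 ± 0.23 and 0.44 ± 0.20 and were not called. At 2 h after IFNα they differed by 2.16 ± 0.25, 1.65 ± 0.23 and 1.39 ± 0.20 and were called. An interaction that is not called does not show that the line difference was alike in both. Stat4, which relays interleukin 12 signals, was lower in B10.Q at 9.72 to 10.55 (median 10.30) against 10.78, 10.83, 10.98 and 10.93 (-0.65 ± 0.093, adjusted p = 0.00299, limma). Of 29 interferon signalling genes, 4 were called higher and 2 lower, and 1 and 2 of these were without overlap (10.3% against 5.38% of all genes tested).

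The receptor genes did not separate the lines. Ifnar2 read 11.85, 11.92, 12.03 and 12 in KO and 11.90 to 12 (median 11.95) in B10.Q arrays, a difference of -0.0006 ± 0.067 whose 95% interval was -0.15 to 0.15. Il10rb, a chain of the interleukin 10 and interferon lambda receptors, differed by 0.023 ± 0.089, and Ifngr2, a chain of the interferon gamma receptor, by 0.075 ± 0.10. Tyk2 read 9.88, 9.95, 9.49 and 9.85 in KO and 9.84 to 9.92 (median 9.85) in B10.Q arrays (0.074 ± 0.085, 95% interval -0.11 to 0.26, adjusted p = 0.575, limma). The signs of Ifnar2, Il10rb, Ifngr2 and Tyk2 turned under other settings or without single arrays, as listed under the dependence on processing. For Ifnar1 the difference was 0.098 ± 0.098 (adjusted p = 0.52, limma).

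Some markers of macrophage subsets differed between the lines. Folr2, the folate receptor of resident tissue macrophages, read 10.71, 10.81, 10.70 and 10.52 in KO and 8.56 to 9.73 (median 9.30) in B10.Q arrays (-1.53 ± 0.094, adjusted p = 1.5e-05, limma). Its lowest values were the 5 h arrays at 8.57 and 8.56, yet the vehicle arrays at 9.17 and 9.47 were also well below every KO array. Lyve1, a hyaluronan receptor, read 11.65, 11.53, 11 and 12.12 against 9.27 to 10.75 (median 10.03; -1.57 ± 0.21, adjusted p = 0.00208, limma). These were the only 2 called of 13 genes on the list of small and monocyte-derived macrophages (15.4% against 5.38% of all genes tested), and the median of the list was -0.11. As Folr2 is a receptor of resident cells, this count does not describe monocyte-derived cells as such. Ccr2 of the same list overlapped, at 7.64 to 8.55 in KO and 7.17 to 8.66 in B10.Q arrays, and was not called. Cd209f, a lectin of the DC-SIGN family, was at 7.99, 8.80, 6.82 and 7.70 in KO and 5.55 to 6.66 (median 6.27) in B10.Q arrays, where all 6 lay under the array median (-1.65 ± 0.20, adjusted p = 0.00136, limma). F13a1, the A chain of coagulation factor XIII, was also lower (-1.09 ± 0.22) and passed in 7 of the 10 comparisons without 1 array; it was picked out after its values were seen.

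Of 33 genes of large peritoneal macrophages, 7 were called higher and 0 lower, and 5 of these were without overlap (15.2% against 5.38% of all genes tested). The median was 0.21, and 26 were not called. Garnl3, F5 (coagulation factor V) and Cd9 (a tetraspanin) were without overlap and in the stable set, with differences of 0.66 ± 0.069, 0.57 ± 0.086 and 0.55 ± 0.09. Nt5e, which encodes the ectoenzyme CD73, and Bhlhe40, a repressor needed for macrophage proliferation, differed by 0.55 ± 0.12 and 0.56 ± 0.13 but were called in only 4 and 2 of the 10 comparisons without 1 array. For Bhlhe40 these were the comparisons without the first KO array at 2 h after IFNα (0.38) and without the second (0.75). Gata6, the factor that defines these cells, read 11.62, 11.47, 10.63 and 11.30 in KO and 11.31 to 11.85 in B10.Q arrays and was not called (0.34 ± 0.12, adjusted p = 0.11, limma). The mean of the 11 macrophage markers was 11.61 to 12.07 in KO and 12.03 to 12.24 in B10.Q arrays, and its part in these differences was not tested.

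Several receptors for lipids and sugars differed, in both directions. Trem2, a lipid-sensing receptor of macrophages, was at 10.41, 10.35, 9.97 and 10.40 in KO and 11.18 to 11.68 (median 11.60) in B10.Q arrays (1.22 ± 0.091, adjusted p = 5.96e-05, limma). Olr1, the receptor for oxidised low-density lipoprotein, read 7.29, 7.37, 8.69 and 7.52 against 8.88 to 9.63 (median 9.35; 1.60 ± 0.19, adjusted p = 0.000943, limma). The first KO array at 2 h was far above the other 3 for Olr1 and still below every B10.Q array. Of 30 C-type lectin and scavenger receptors, 8 were called higher and 3 lower, and 3 in each direction were without overlap (20% against 5.38% of all genes tested), with a median of 0.093. Clec7a, the beta-glucan receptor dectin-1, was higher by 0.57 ± 0.10 (passing in 9 of the 10 comparisons without 1 array) and Cd300lf, an inhibitory lipid receptor, by 0.62 ± 0.093, whereas Siglece, a sialic acid receptor, was lower (-0.52 ± 0.11; 7 of 10). Clec5a, a receptor that signals through DAP12, differed by 1.62 ± 0.20 (adjusted p = 0.00143, limma).

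Among 15 efferocytosis genes 3 were called higher and 1 lower, all without overlap (26.7% against 5.38% of all genes tested). Gas6, the bridge between dying cells and the receptors Mertk and Axl, read 8.02, 8.35, 8.09 and 8.36 in KO and 7.25 to 7.72 (median 7.51) in B10.Q arrays (-0.72 ± 0.098, adjusted p = 0.00231, limma). Pros1, protein S, which also binds Mertk, differed by 0.31 ± 0.067 in the opposite direction, and Itgav, the integrin alpha V chain, by 0.30 ± 0.077. The calls of Pros1 and Itgav held in 3 and 1 of the 10 comparisons without 1 array.

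Single genes that deal with bacterial products, and 2 cytokine genes, also separated the lines. Aoah, the enzyme that strips acyl chains from lipopolysaccharide, read 9.17, 9.38, 9.05 and 9.18 in KO and 6.97 to 7.51 (median 7.24) in B10.Q arrays, 5 of them under their own medians (-1.94 ± 0.079, adjusted p = 1.07e-06, limma). Its difference was -2.22 ± 0.12 without IFNα and -1.64 ± 0.12 at 2 h. Tlr2, the receptor for bacterial lipopeptides, was higher in B10.Q by 0.45 ± 0.077, the 1 gene called without overlap of 26 toll-like and NOD-like receptor genes (3.85% against 5.38% of all genes tested). Without both B10.Q arrays at 5 h after IFNα, Tlr2 was not called (0.43, adjusted p = 0.0517, limma). Il6, encoding interleukin 6, read 6.02, 5.16, 6.33 and 5.34 in KO and 7.17 and 6.51 with vehicle, 8.35 and 7.68 at 2 h and 7.14 and 7.51 at 5 h in B10.Q (1.68 ± 0.25, adjusted p = 0.0036, limma). The KO arrays for Il6 were all under the array median, and so were both B10.Q vehicle arrays and the first B10.Q array at 5 h. Of 22 chemokine and cytokine genes 4 were called higher and 2, Il6 and Tnfsf10, were without overlap (9.09% against 5.38% of all genes tested). Tnfsf10, encoding the death ligand TRAIL, differed by 1.12 ± 0.20, and without the second KO array titled without IFNα its difference of 1.13 was not called (adjusted p = 0.0594, limma).

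Some further genes were picked out after their values were seen and stand for no group. P2rx1, an ATP-gated channel, read 8.42, 8.11, 8.41 and 8.74 in KO and 9.73 to 10.11 (median 9.85) in B10.Q arrays (1.46 ± 0.11, adjusted p = 6.07e-05, limma). Ada, adenosine deaminase, read 7.29, 7.24, 7.43 and 7.02 against 8.29 to 8.72 (median 8.45; 1.22 ± 0.097, adjusted p = 7.3e-05, limma). P2ry14, a receptor for UDP-sugars, was higher by 1.24 ± 0.15, while P2ry6, another nucleotide receptor, was lower (-0.99 ± 0.15). Fuca1, the lysosomal fucosidase, was higher by 1.17 ± 0.088, while Gm2a, the activator of ganglioside breakdown, was lower, at 11.31 to 11.50 (median 11.34) against 12.23, 12.23, 12.12 and 12.12 (-0.80 ± 0.071, adjusted p = 0.00015, limma). Lgals1, galectin 1, was lower (-1.02 ± 0.093).

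Nnt, the mitochondrial transhydrogenase that feeds NADPH to the glutathione system, is partly deleted in C57BL/6J mice. It read 9.37, 9.20, 8.99 and 9.47 in KO and 9.99 to 10.26 (median 10.10) in B10.Q arrays, so every array was above its own median, and the difference was 0.87 ± 0.099 (adjusted p = 0.000865, limma). The gap was alike without IFNα (0.95 ± 0.15) and at 2 h (0.86 ± 0.15). Of 28 glutathione and redox genes 2 were called higher and 1 lower, and 2 were called without overlap (7.14%, near the 5.38% of all genes tested). Gsr, glutathione reductase, was the other of these (0.45 ± 0.085, adjusted p = 0.0121, limma). Without the second KO array titled without IFNα, Gsr was not called, at 0.43 (adjusted p = 0.0754, limma). Me1, malic enzyme, another source of NADPH, was higher by 1.32 ± 0.15, and was chosen after its values were seen. In lipid handling, 1 of 32 genes was called (3.12%, below the 5.38% of all genes tested): Lpl, lipoprotein lipase, at 11.46, 11.15, 10.93 and 10.95 in KO and 11.57 to 12.08 (median 11.70) in B10.Q arrays (0.66 ± 0.11, adjusted p = 0.00637, limma).

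Of 12 clock genes, whose levels follow the time of day, 1 was higher and 2 were lower without overlap (25% against 5.38% of all genes tested). Per2 and Cry1, repressors of the clock, were lower in B10.Q (-0.61 ± 0.10 and -0.52 ± 0.091). Nr1d2, which encodes the nuclear receptor Rev-erb beta, read 7.96, 7.80, 8.12 and 7.82 in KO arrays and 8.60 and 9.53 with vehicle, 8.31 and 8.52 at 2 h and 9.65 and 9.63 at 5 h in B10.Q (1.12 ± 0.16, adjusted p = 0.0031, limma). The vehicle array taken at 2 h lay near the IFNα arrays of 2 h, and the vehicle array taken at 5 h near those of 5 h. Without both 5 h IFNα arrays the difference was 0.82 and not called (adjusted p = 0.0615, limma). Nr1d1, its close relative, split by time in the same way, at 9.64 and 11.07, 9.10 and 9.66 and 11.16 and 10.98, and overlapped the KO arrays. The KO arrays hold no 5 h time point, so line and time of collection are only partly separated in these genes.

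Single stress and immediate early genes differed, in both directions. Hspa1a, named above among the genes of the H2 complex, read 8.81, 10.69, 9.40 and 9.96 in KO and 7.99 to 8.44 (median 8.12) in B10.Q arrays (-1.53 ± 0.30, adjusted p = 0.0147, limma). The KO arrays spread widely and the B10.Q arrays did not. The call was lost without both B10.Q arrays at 5 h after IFNα (-1.55, adjusted p = 0.0527, limma) and without the first B10.Q array at 2 h (-1.55, adjusted p = 0.0513, limma). Jun, a subunit of the AP-1 factor, read 9.92, 10.07, 9.53 and 9.86 against 8.93 to 9.32 (median 9.15; -0.72 ± 0.093, adjusted p = 0.00168, limma), and Fos, its partner, differed by -0.45 ± 0.13 without a call. Nr4a1, an orphan nuclear receptor induced early, was higher by 0.48 ± 0.12, a call kept in 3 of the 10 comparisons without 1 array, those without either KO array at 2 h after IFNα or the first vehicle array. Of 20 immediate early genes, 1 was called in each direction, both without overlap (10% against 5.38% of all genes tested). Of 16 stress genes 1 was called higher and 2 lower, and 1 was without overlap (6.25%).

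Several other genes on the lower side had no list. Fblim1, which links filamin to cell adhesions, read 8.54, 8.68, 8.91 and 8.40 in KO and 6.85 to 7.12 (median 6.93) in B10.Q arrays, where all 6 were under the array median (-1.69 ± 0.11, adjusted p = 1.78e-05, limma). Dctd, which deaminates dCMP for thymidine synthesis, differed by -1.24 ± 0.20, and 1700025G04Rik by -1.34 ± 0.16. Cd52, a small surface glycoprotein of leukocytes, differed by -1.18 ± 0.21 and lost its call without the second KO array titled without IFNα (-1.16, adjusted p = 0.059, limma). Rnu12, the U12 small nuclear RNA of the minor spliceosome, read 10.59, 8.99, 9.87 and 8.57 in KO and 7.69 to 8.19 (median 8.03) in B10.Q arrays, with the first KO array of each pair the higher. Its difference of -1.51 ± 0.31 was not called without the first B10.Q array at 2 h (-1.51, adjusted p = 0.0594, limma), the second (-1.51) or the second 5 h array (-1.44). Cell cycle genes had 1 of 30 called lower and 0 without overlap on average over treatments. Their median was -0.24, and it was -0.58 without IFNα and 0.12 at 2 h after it. Without IFNα 3 of the 30 were called, against 57 of all 10531 genes tested, and at 2 h 0 were.

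The places of the called genes on the chromosomes were looked at as well. Near Ifnar1 on chromosome 16, the 40 tested genes closest to it (20 on each side) held 4 called without overlap, 10% against 5.38% of all genes: Synj1 (0.42 ± 0.11), N6amt1 (0.41 ± 0.10), Cbr1 (0.30 ± 0.071) and Cfap298 (-0.35 ± 0.082). Each of these calls was lost in most comparisons without 1 array, and held in 1, 2, 3 and 3 of 10. All 4 held without the second KO array at 2 h after IFNα, and all but Synj1 also without the first. Of the 60 tested genes before Ifnar1, 11 were called without overlap, and of the 60 after it 3, against 5.38% of all genes tested. The count after Ifnar1 is near that share. Near Tyk2 on chromosome 9, 1 of 40 neighbours was called without overlap (2.5%, below the 5.38% of all genes tested). This was Kank2 at -0.37 ± 0.074, which passed in 5 of the 10 comparisons without 1 array.

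Blocks of at least 6 such genes among 20 neighbouring tested genes, a search chosen after the values were seen, occurred in 8 places. Each block was cut to begin and end at a called gene, so its share of called genes is high by choice. How many blocks would arise by chance was not tested. On chromosome 16, 9 of 28 genes from Tbc1d23 to N6amt1 were called without overlap, and all 9 were higher in B10.Q. Gbe1, the glycogen branching enzyme, led the protein-coding genes there, at 10.61, 10.50, 10.84 and 10.60 in KO and 11.26 to 11.53 (median 11.36) in B10.Q arrays (0.75 ± 0.076, adjusted p = 0.000384, limma). On chromosome 6, 7 of 20 genes from Rpa3 to Cped1, Wnt2 and St7 among them, were all higher. On chromosome 4, 10 of 30 genes from Cd52 to Tcea3 were called, 3 higher and 7 lower, with Cnr2, the cannabinoid receptor of immune cells, and Fuca1 among the higher and the transcription factors Runx3 and E2f2 among the lower. On chromosome 11, Slc22a4, an ergothioneine transporter, and Pdlim4, which binds actin, lay in a block of 6 called genes of 14 and differed in opposite directions, by 1.09 ± 0.094 and -0.95 ± 0.073. The block on chromosome 17, from Rps18 to Agpat1, held 10 of 26 genes and the class II genes described above. The remaining 3 blocks lay on chromosome 1 (6 of 20 genes, with 1700025G04Rik), chromosome 2 (7 of 19, with the integrin genes Itga4 and Itgav) and chromosome 7 (7 of 26, with Lyve1).

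**Figure D5:**
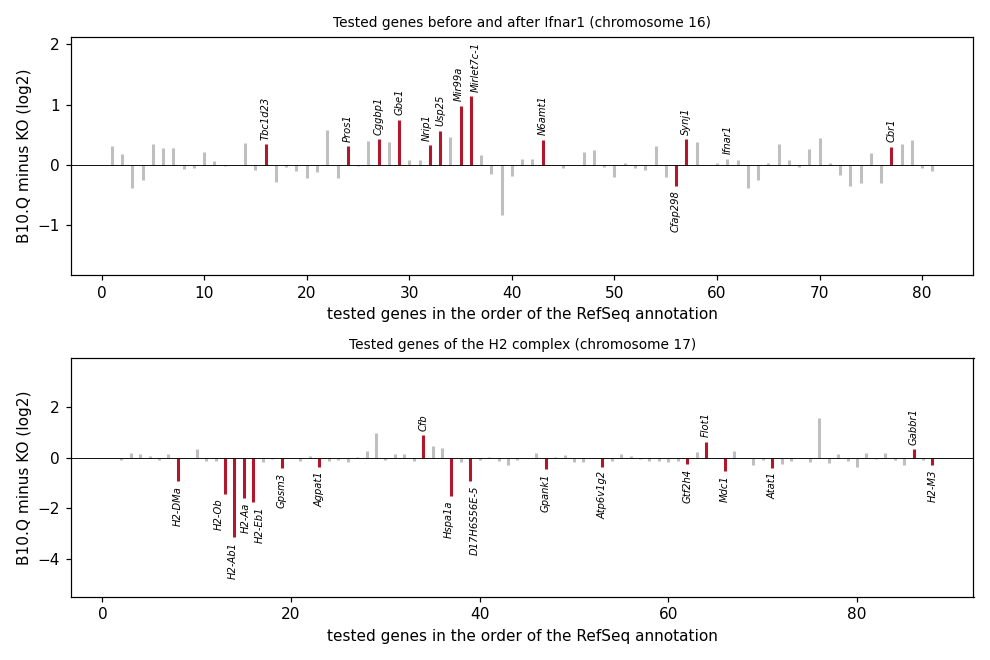
Mean line difference (B10.Q minus KO, log2; vertical axis) of tested genes in RefSeq order (horizontal axis, gene number), around Ifnar1 on chromosome 16 and across the H2 complex on chromosome 17. Red bars are genes called without overlap: in the order before Ifnar1 they are all positive from Tbc1d23 to N6amt1, and in the H2 complex 15 of 18 are negative.

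Inside the chromosome 16 block sit 2 microRNA genes, printed because both were higher in B10.Q; capitals mark the seed, bases 2 to 8, and the sequences and positions are from RefSeq on GRCm38.p6.
mmu-miR-99a-5p, chr16:77598940-77598961, plus strand: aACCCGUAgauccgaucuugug
mmu-let-7c-5p, chr16:77599672-77599693, plus strand: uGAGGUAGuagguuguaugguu
Their seeds differ, so they belong to separate families. The probe set of Mir99a read 8.05, 7.34, 7.91 and 8.0 in KO and 8.60 to 9.13 (median 8.80) in B10.Q arrays (0.98 ± 0.13, adjusted p = 0.00231, limma). The probe set of Mirlet7c-1 read 6.69, 5.78, 6.82 and 6.83 against 7.48 to 7.84 (median 7.64; 1.14 ± 0.15, adjusted p = 0.00175, limma). The second KO array titled without IFNα was the lowest for both. These probe sets lie on the precursor genes, so the values are not levels of the mature microRNAs. Over all 115 small RNA probe sets tested, a group formed after the values were seen, 5 were higher and 6 lower without overlap, or 9.57% against 5.38% of all genes.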

How the data were processed

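The authors deposited linear intensities, 1 for each probe set and array, made with RMA in Affymetrix Power Tools per the submitters' processing notes; versions, and whether all 16 arrays were normalised together, are not given in the sources used here. The log2 of each deposited intensity was used without further scaling. Of 24922 probe sets, 21425 carried 1 gene symbol, 1399 several and 2098 none. The probe set with the highest mean stood for a gene, and 10531 genes with at least 2 of the 10 arrays above their own median were tested. The program limma 3.58.1 under R 4.3.3 modelled the 10 arrays as 5 groups, with 4 contrasts: the mean line difference, the difference without IFNα, at 2 h after IFNα, and the change between these. Tests are two-sided, and precision is limited by how few arrays there are. Named genes were up to 15 largest in each direction among those called without overlap, up to 4 with the largest difference per list, called neighbours of Ifnar1 and in the H2 complex, and receptor genes with Tyk2. Members, lists and rules were chosen with earlier results of these data known. The scripts were tested on simulated data. Alternatives covered the filter, scaling, variance model, probe sets, arrays in the fit, the replicate number as a block and leaving out each array.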

Additional observations from a re-analysis of the deposited data

Results flagged for a closer look

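Single arrays that lay far from the others of their line were looked for among 250 sets of values of the named genes, taking the 4 KO or the 6 B10.Q arrays as a set, and 17 were found; chance alone gives about 1 in 20. Since a set joins treated and untreated arrays, a value can also stand apart with its treatment. The first KO array at 2 h after IFNα stood apart for Olr1 (8.69, above the other KO arrays), Bhlhe40 (9.33), Il15 (8.18), Nr1d1 (9.49) and Trem2 (9.97, below the others). The second KO array at 2 h did so for Cd14 (11.48), a coreceptor for lipopolysaccharide, and for the cell cycle genes Ccna2 (9.12) and Kif11 (7.92). Among KO arrays titled without IFNα, the first was apart for H2-Ob (8.53) and the second for H2-DMa (11.38) and the GTPases Gm12250 (9.36) and Iigp1 (7.2). In B10.Q, the first vehicle array was apart for Tlr2 (9.79) and the chaperone Hsph1 (9.22) and the second for Nr4a1 (9.6). The first B10.Q array at 2 h was apart for Ifngr2 (10.76), and the first at 5 h for Aldh2 (11.74), an aldehyde dehydrogenase.

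The line difference itself changed between the arrays without IFNα and those at 2 h after it (limma interaction) for Slfn5, by 3.23, Oas2, by 2.96, Eif2ak2, by 2.48, and Arg1, by 1.12.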

How the results depend on the processing

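The counts of genes depended more on single arrays than on the settings tried. Leaving out each array in turn gave 282 to 4204 genes for the mean line difference, 21 to 391 without IFNα, 76 to 2898 at 2 h after IFNα, 8 to 490 for the change between these, 1157 to 2081 without overlap and 194 to 1820 called without overlap. Without IFNα, a filter at the 70th percentile left 30 genes, out of fewer tested. With all 16 arrays in the fit the counts were 1558 (mean), 148 (without IFNα), 422 (2 h) and 75 (change), and a fit of only the compared groups gave 183 without IFNα and 77 at 2 h. Without both KO arrays numbered 1, 2411 genes were without overlap and 942 of them called; without the B10.Q arrays at 5 h after IFNα, 252 were called and 199 without overlap. These last settings were chosen after seeing the data, and the cause was not tested for settings that only change the arrays in the fit. With the replicate number as a block the counts were 745 (mean), 59, 196 and 41, with 498 called without overlap. Deviations of like-numbered arrays correlated between -0.292 and 0.458. With 2 arrays in each group, these values cannot decide whether the numbers pair the arrays.

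Of 2601 values of 125 named genes under the alternatives, 2311 kept direction and call, 190 lost the call, 82 gained one and 18 turned sign. Among 83 named genes called, 40 kept direction and call under every alternative run. Quantile normalization turned Il10rb (-0.0307), and subtracting array medians turned Ifnar2 (0.0529). Without both KO arrays numbered 1, Tap1 (-0.0422), Il10rb (-0.0861) and Tyk2 (-0.036) turned, and without the B10.Q arrays at 5 h Ms4a6d (-0.1563) and Il10rb (-0.006). Leaving out single arrays moved Ifnar2 between -0.0168 and 0.0156, Il10rb between -0.0373 and 0.0837, Ifngr2 between -0.0044 and 0.1538 and Tyk2 between -0.017 and 0.1658. None of these genes was without overlap between the lines.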
